A study of Mus musculus with 12 samples.

Results

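Replication-dependent histone genes encode the core histones H2A, H2B, H3 and H4 and the linker histone H1 that package newly made DNA. In the deposited table they were taken by a symbol pattern for H1, H2A, H2B, H3 and H4 genes, which gave 64 of 23667 symbols. These were 5 for H1, 20 for H2A, 15 for H2B, 12 for H3 and 12 for H4. The pattern also takes in pseudogenes. Hist1h2al and H2ac14 are annotated as such, and H2ac5-ps is one by its symbol. They are counted as H2A genes here, and Hist1h2al and H2ac5-ps passed the filter that follows. The set was chosen partly because single histone genes had small p-values in an earlier analysis of these libraries, so the levels and fold changes below are a description of genes selected on such values and not a test of the set. With a level of at least 1 TPM (a share of a library's transcripts, scaled by transcript length) in at least 3 of 12 libraries, 42 of the 64 were kept: 3 H1, 16 H2A, 8 H2B, 8 H3 and 7 H4 genes. A gene can pass this filter through the group in which it is high, so counts over the 42 are not counts over all members. Just inside the filter stood Hist1h2ao, with a third-highest value of 1.04 TPM, and H1f4, with 1.14 TPM. Just outside stood Hist1h2bq, at 0.988 TPM, and H4c14, at 0.977 TPM. Among the 22 genes left out, the highest value in any library was 1.95 TPM.

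The libraries came from mammary tumours of 4T1 cells, a mouse breast cancer line, with 3 tumours in each of 4 groups. Control cells (CTRL) and cells labelled TREX1 KO, edited with CRISPR-Cas9 in the gene of TREX1, an exonuclease that degrades cytosolic DNA, were each grown under matched isotype antibodies (IgG) or under immune checkpoint blockade (ICB), which was 200 ug of anti-PD1 with 100 ug of anti-CTLA4 given 3 times over 1 week. All 4 groups share the 4T1 background and the antibody injections, the tumours were sequenced whole with their stroma and immune cells, and whether the knockout line is 1 clone is not given in the sources used here. RNA carrying a poly(A) tail was sequenced.

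Most histone mRNAs of this kind are made in S phase, when DNA is copied, and they normally end without a poly(A) tail. Their 3′ end is cut just after a short stem-loop, which the protein SLBP binds. Some histone genes also give longer, polyadenylated transcripts, chiefly in cells that have left the cell cycle. A library made from poly(A) RNA therefore sees the second kind well and the first kind poorly, and a level here is that of the captured transcripts.

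The 3′ ends are shown because poly(A) libraries capture a transcript by its tail. The part of the annotated ends in the levels found here was not tested. Of the 64 members, 63 could each be tied to 1 gene in GENCODE M21, an annotation of the mouse build GRCm38, 53 of them on chromosome 13 and 10 on chromosome 3; H2ac5-ps did not match. The annotation gives 47 of them a 3′ untranslated region of at least 16 bases, and a stem-loop (6 paired bases around a loop of 4) lies within 200 bases of the stop codon in 41 of these 47 (87.2%). It was found in 10 of 21022 other protein-coding genes (0.0476%). All of these but Btbd10, Ppm1b and Tcl1b1 are histone genes that are not members here: H2afx, H2bfm, Hist1h1t, Hist1h2bj, Hist3h2a, Hist3h2ba and Hist4h4. Below, each stretch is read 5′ to 3′ on the coding strand, with the stem-loop in capitals.
H1f2, chr13:23739505-23739534, plus strand: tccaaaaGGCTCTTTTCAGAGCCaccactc
H2ac18, chr3:96246025-96246054, plus strand: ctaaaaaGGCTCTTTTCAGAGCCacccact
H2bc12, chr13:22036293-22036322, plus strand: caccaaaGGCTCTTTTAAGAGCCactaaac
H4c8, chr13:23531451-23531480, plus strand: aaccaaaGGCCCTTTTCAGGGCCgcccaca
The form in H1f2 and H2ac18 was the commonest, with 23 genes from the H1, H2A, H2B and H3 classes. The form in H4c8 was found in 6 genes, all of the H4 class, and the form in H2bc12 in 5 genes of the H2B and H3 classes. In 19 of the 41 genes the annotated transcript runs at least 100 bases past the stem-loop, and in H1f2 it runs 840 bases past it. The polyadenylation signal AATAAA stands within the last 50 bases of 8 of the 63 members (12.7%), H1f2 among them, against 59.2% of other protein-coding genes.

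Promoters were available for 48 of the 64 members in a RefSeq table on GRCm38.p6, as 250 bases before and 50 after the start. The letters CCAAT, on either strand, stood in 42 of them (87.5%), against 37.4% of all 32851 promoters of that length. All promoters of the other classes held CCAAT, whereas it was in 3 of 9 H4 promoters. TATAAA stood in 29 of 48 (60.4%) against 13.6% of all promoters. The octamer ATTTGCAT stood in 6 of 14 H2A promoters, 5 of 10 H2B promoters and no promoter of the other classes, against 1.74% of all promoters. It lay on the opposite strand in the H2A and on the coding strand in the H2B promoters. Some H2A and H2B genes lie head to head with overlapping windows, so the same letters can be counted in both classes. An example are H2ac12 (chr13:22035594-22035893) and H2bc12 (chr13:22035571-22035870), which both hold the octamer. AAACACA, a box known from H1 genes, stood in 4 of 5 H1 promoters against 7.18% of all promoters. The promoters of H1f2 and H2ac18 are shown because these are the members whose listed level separated the treatments in the results. For H2ac18 that level is an estimated split from its copy H2ac19, and the sum of both copies overlapped between treatments in CTRL tumours. That of H4c8 is shown because the level of H4c8 was highest in 1 group and none of the searched letters was found in its window. The capitals mark CCAAT (or ATTGG, its other strand), TATAAA and AAACACA.
H1f2, chr13:23738557-23738856, plus strand: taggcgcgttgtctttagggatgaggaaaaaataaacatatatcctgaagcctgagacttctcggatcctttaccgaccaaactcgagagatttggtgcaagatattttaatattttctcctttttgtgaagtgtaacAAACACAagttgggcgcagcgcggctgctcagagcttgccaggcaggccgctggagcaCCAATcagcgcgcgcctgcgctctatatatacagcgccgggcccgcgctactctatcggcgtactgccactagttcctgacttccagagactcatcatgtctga
H2ac18, chr3:96245247-96245546, plus strand: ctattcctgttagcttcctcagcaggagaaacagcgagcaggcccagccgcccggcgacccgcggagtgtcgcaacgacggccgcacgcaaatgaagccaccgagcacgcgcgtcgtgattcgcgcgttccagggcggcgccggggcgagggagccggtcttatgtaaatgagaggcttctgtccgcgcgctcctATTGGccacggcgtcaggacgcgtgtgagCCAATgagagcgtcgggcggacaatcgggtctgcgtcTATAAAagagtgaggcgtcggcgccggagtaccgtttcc
H4c8, chr13:23530794-23531093, plus strand: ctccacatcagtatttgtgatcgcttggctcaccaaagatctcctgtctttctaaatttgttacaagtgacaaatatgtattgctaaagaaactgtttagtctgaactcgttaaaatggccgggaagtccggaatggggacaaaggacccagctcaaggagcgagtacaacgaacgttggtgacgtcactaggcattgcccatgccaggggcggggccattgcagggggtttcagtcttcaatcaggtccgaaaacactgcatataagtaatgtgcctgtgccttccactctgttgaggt

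Sequence shared between members limits how far their levels can be told apart. For the 41 kept genes in the annotation, a median of 75.3% of all stretches of 31 bases in the transcript also occur in another gene, and in 32 genes the share is at least 50%. The share was 11.4% for H1f2, 33.5% for H2bc4 and 35.6% for H4c9. It was 89.0% for Hist1h2an, 93.4% for Hist1h2ap and 100% for H2ac18, H2ac19 and H3c13. H2ac18 and H2ac19 are 2 copies of 1 H2A gene on chromosome 3, and reads of the one fit the other. H3c13 lies wholly inside the annotated gene Gm20628, which also covers H2bc18. All stretches of H2ac18 likewise occur in the annotated gene Gm20633. Neither Gm20628 nor Gm20633 has a row in the deposited table, so the 100% may overstate the sharing of H3c13 in these values. For H2ac18 most of the sharing remains, since all stretches of H2ac19 (528 bases), which has a row, occur in H2ac18 (586 bases). Whether the authors' transcript set held Gm20628 and Gm20633, and whether their counting used strand, is not given in the sources used here.

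**Figure D1:**
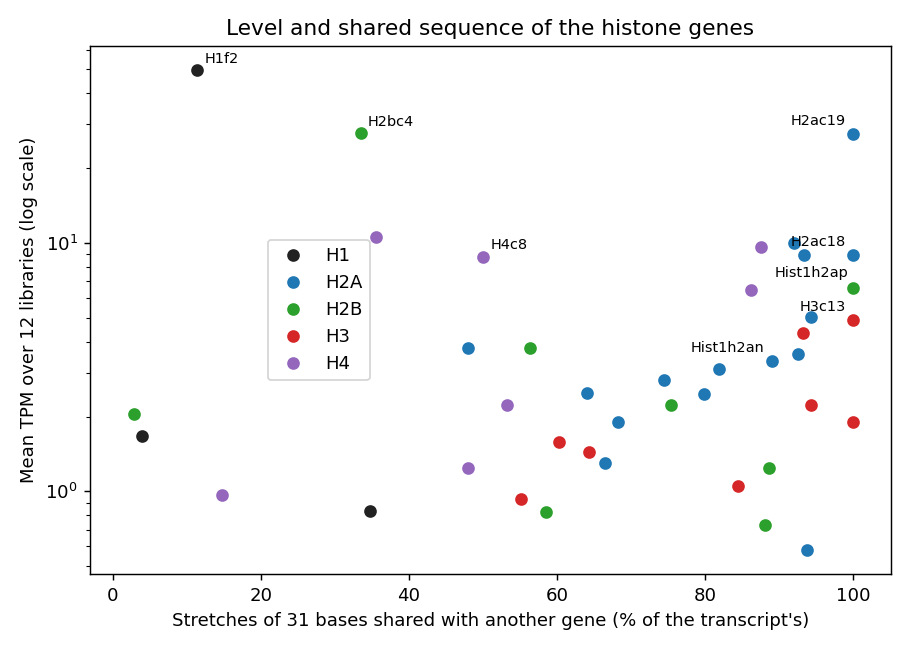
Mean level over the 12 libraries (TPM, log scale) against the share of 31-base stretches that another gene holds (percent), 1 point for each of the 41 kept histone genes in the annotation, coloured by class. H1f2 (11.4% shared) and H2bc4 (33.5%) combine a high level with mostly private sequence, whereas H2ac18, H2ac19 and H3c13 share all of theirs. For H2ac18 and H3c13 the closest annotated gene has no row in the deposited table, but H2ac19, whose stretches all occur in H2ac18, has a row.

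A few facts of the libraries bear on every result. KO-IgG libraries 2 and 3, and KO-ICB libraries 1 and 2, were so alike (a robust SD of their log2 ratio of 0.0612 and 0.0377 over genes above 300 TPM, whereas the 10 remaining within-group pairs gave 0.216 to 0.598) that each pair was averaged and counted as 1 sample, which leaves 3 CTRL-IgG, 3 CTRL-ICB, 2 KO-IgG and 2 KO-ICB samples. With so few samples, 2 groups can fail to overlap without a difference between them. The share of all genes that did so was counted only for all ICB against all IgG and all KO against all CTRL samples. Non-overlap of 2 single groups is therefore a description. The unit TPM carries no depth, so the counting error of a value is unknown. The pairs show part of it: among genes with a mean of 1 to 10 TPM, the median absolute log2 difference between KO-IgG libraries 2 and 3 was 0.60 for the 32 histone genes and 0.20 for all 4801 genes. Between KO-ICB libraries 1 and 2 it was 0.47 and 0.16. The epithelial marker Epcam was at 87.1 to 1239 TPM in 11 libraries and at 0.661 TPM in KO-IgG 1, which also had the highest summed level of macrophage markers, 3439 TPM against 759 to 2226 TPM elsewhere. Summed keratinocyte markers stood at 3455 TPM in CTRL-IgG 3 and 4694 TPM in CTRL-ICB 3, and at 3.59 to 416 TPM in the other libraries. Trex1 transcript stood at 32.8 to 46.2 TPM in the CTRL libraries and 56.0 to 72.2 TPM in the KO libraries, a level that says nothing of whether its protein is made.

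The captured histone transcripts were unevenly spread over the genes. H1f2, the gene of linker histone H1.2, had the highest mean level (49.7 TPM), followed by H2bc4 (27.6 TPM), an H2B gene, and H2ac19 (27.5 TPM). H4c9 led the H4 class with 10.6 TPM and H3c13 the H3 class with 4.88 TPM. Of the 42 kept genes, only H1f2, H2bc4, H2ac19 and H4c9 had a mean above 10 TPM. H1f2 alone made up 11.8% to 27.6% of the summed level of all 64 genes. Some genes of histones that are made outside S phase were far more abundant. H3f3b, a gene of the replacement histone H3.3, was at 794 to 1197 TPM and H1f0, a linker histone of resting cells, at 297 to 798 TPM.

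**Figure D2:**
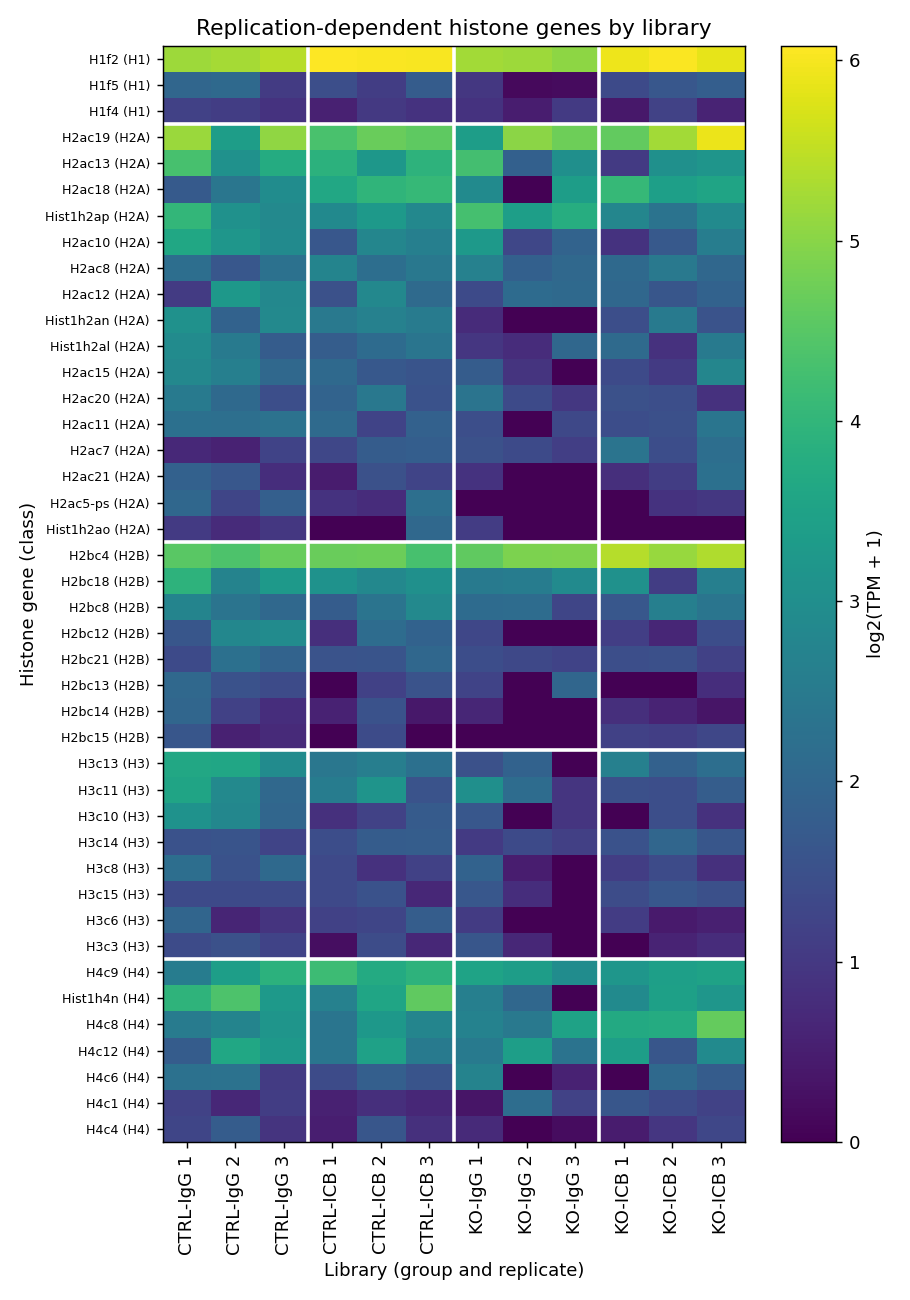
Level of the 42 kept histone genes (rows, grouped by class and ordered by mean) in each of the 12 libraries (columns), as log2(TPM + 1). H1f2 is brighter in the ICB than in the IgG libraries of both genotypes, and KO-IgG 2 and 3 hold the most genes at 0, with 14 of 42 each.

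The classes differed in how their summed level was spread over the groups. The 5 H1 genes summed to 40.9, 42.5 and 44.4 TPM in CTRL-IgG, 69.3, 67.7 and 67.9 TPM in CTRL-ICB, 39.2, 36.2 and 33.7 TPM in KO-IgG and 61.8, 69.2 and 60.4 TPM in KO-ICB. Every ICB library stood above every IgG library, and H1f2 carried nearly all of that sum. The 12 H3 genes summed to 45.1, 33.9 and 22.5 TPM in CTRL-IgG, 17.96, 23.7 and 16.6 TPM in CTRL-ICB, 23.2, 10.98 and 3.84 TPM in KO-IgG and 14.7, 14.3 and 14.2 TPM in KO-ICB. The CTRL-IgG libraries had the highest H3 median and overlapped CTRL-ICB and KO-IgG, and even the near-identical KO-IgG libraries 2 and 3 lay far apart. Over the 20 H2A genes the group means were 98.1 ± 26.0 TPM (SD, n = 3) in CTRL-IgG, 91.5 ± 9.57 TPM (n = 3) in CTRL-ICB, 74.3 ± 14.8 TPM (n = 2) in KO-IgG and 98.2 ± 32.3 TPM (n = 2) in KO-ICB, and all groups overlapped. The 15 H2B genes summed to 46.0 to 56.2 TPM in CTRL-IgG, 39.1 to 48.1 TPM in CTRL-ICB, 38.1 to 42.4 TPM in KO-IgG and 47.6 to 59.5 TPM in KO-ICB. The 12 H4 genes summed to 36.8 to 57.7 TPM, 34.3 to 53.9 TPM, 25.1 to 33.4 TPM and 40.0 to 55.3 TPM in the same order, so that KO-IgG stood below the others. Over all 64 genes the sum was 252 to 303 TPM in CTRL-IgG, 241 to 284 TPM in CTRL-ICB, 176 to 219 TPM in KO-IgG and 245 to 308 TPM in KO-ICB, which puts the 3 KO-IgG libraries (2 samples) below all the others. In a whole tumour, fewer cells that make a transcript and less of it per cell cannot be told apart.

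**Figure D3:**
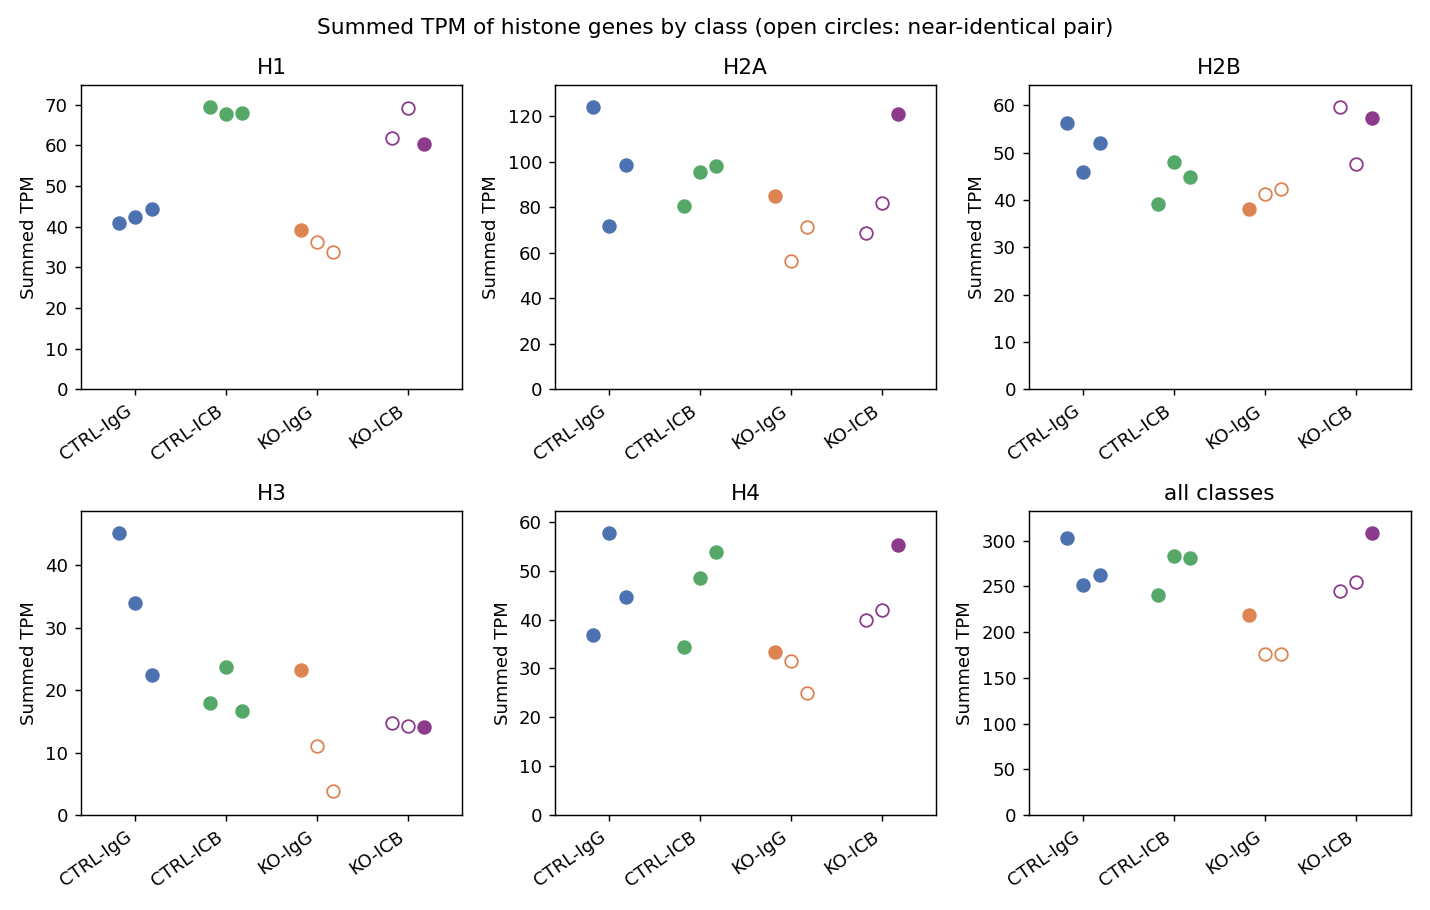
Summed TPM of the histone genes of each class, and of all 64, in the 12 libraries (1 point each, open circles for the near-identical pairs, axes from 0). H1 separates ICB from IgG in both genotypes, and the sum over all classes is lowest in KO-IgG (176 to 219 TPM).

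Fitted over all 13886 genes of the table with at least 1 TPM in 3 libraries, by limma on log2(TPM + 1) with Benjamini-Hochberg adjustment at 0.05, none of the 42 histone genes was called in any of the 7 comparisons. The share of all genes called was 0% for KO-IgG against CTRL-IgG, 0.0072% (1 gene) for KO-ICB against CTRL-ICB, 0.108% (15 genes) for KO against CTRL averaged over the treatments, 0% for CTRL-ICB against CTRL-IgG, 0% for KO-ICB against KO-IgG, 0% for the interaction of genotype and treatment and 0% for ICB against IgG averaged over the genotypes. The last comparison was added after the data had been seen. At an unadjusted p under 0.05 the histone genes numbered 10, 2, 9, 5, 9, 6 and 8 of 42 in that order, against 5.15%, 7.98%, 11.5%, 1.27%, 3.19%, 1.41% and 3.18% of all genes. These contrasts may have served to choose the set, so nothing is read from those counts. With all 12 libraries counted as separate samples, 4 calls appeared: Hist1h2an in KO-IgG against CTRL-IgG (limma adjusted p = 0.0485), Hist1h2an (0.0156) and H2ac5-ps (0.0483) in KO against CTRL averaged, and H1f2 in ICB against IgG averaged (0.0495). Of all 13886 genes, 16, 449 and 2 were then called in these 3 comparisons.

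H1f2 stood higher under checkpoint antibodies in both genotypes. Its level was 35.8, 37.3 and 41.7 TPM in CTRL-IgG, 66.7, 65.4 and 63.5 TPM in CTRL-ICB, 37.0, 35.4 and 32.2 TPM in KO-IgG and 59.5, 64.7 and 57.0 TPM in KO-ICB. The ICB libraries were all higher than the IgG libraries, with no overlap and little spread within a group. The log2 fold change was 0.76 ± 0.16 (SE) in CTRL tumours and 0.73 ± 0.19 in KO tumours. The gene had the smallest p of all 13886 genes in the first comparison, which may be how histone genes came to be chosen, so its size is a description. H1f2 holds AATAAA at its annotated 3′ end, far past its stem-loop, and its sequence is mostly private. The other H1 genes were low: H1f4 was at 0.310 to 1.30 TPM, and H1f5 at 0.112 to 0.975 TPM in KO-IgG and 1.07 to 3.25 TPM in the other groups.

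Over 13886 genes, 11 (0.0792%) stood higher in every ICB sample than in every IgG sample, among them 2 of the 42 histone genes, H1f2 and H2ac18. The set was chosen partly on small p-values in these libraries, so nothing is read from that count. In the other direction there were 37 genes, none of them a histone gene. H2ac18, a copy of the H2A gene pair on chromosome 3, was at 2.29, 4.26 and 6.74 TPM in CTRL-IgG, 11.5, 14.7 and 15.8 TPM in CTRL-ICB, 6.57, 0 and 9.36 TPM in KO-IgG and 15.9, 9.76 and 10.7 TPM in KO-ICB. Its groups did not overlap by treatment, with a log2 fold change of 1.54 ± 0.33 in CTRL tumours and 0.96 ± 0.40 in KO tumours, which was 1.59 with all 12 libraries as samples. H2ac19, the other copy, was at 34.6, 9.47 and 32.5 TPM in CTRL-IgG, 19.3, 24.8 and 22.8 TPM in CTRL-ICB, 9.45, 31.7 and 25.6 TPM in KO-IgG and 23.4, 37.0 and 59.1 TPM in KO-ICB. Over single libraries it overlapped between all groups. With the near-identical pairs averaged, its KO-ICB samples stood above those of KO-IgG and CTRL-ICB. Because all stretches of H2ac19 also occur in H2ac18, the split between the copies is an estimate, and near-identical libraries show it: H2ac18 was at 0 in KO-IgG 2 and 9.36 TPM in KO-IgG 3, whereas the sum of both copies was 31.7 and 34.9 TPM. That sum was 36.9, 13.7 and 39.2 TPM in CTRL-IgG, 30.8, 39.5 and 38.7 TPM in CTRL-ICB, 16.02, 31.7 and 34.9 TPM in KO-IgG and 39.3, 46.8 and 69.8 TPM in KO-ICB. In CTRL tumours it overlapped between the treatments, and in KO tumours ICB stood above IgG.

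**Figure D4:**
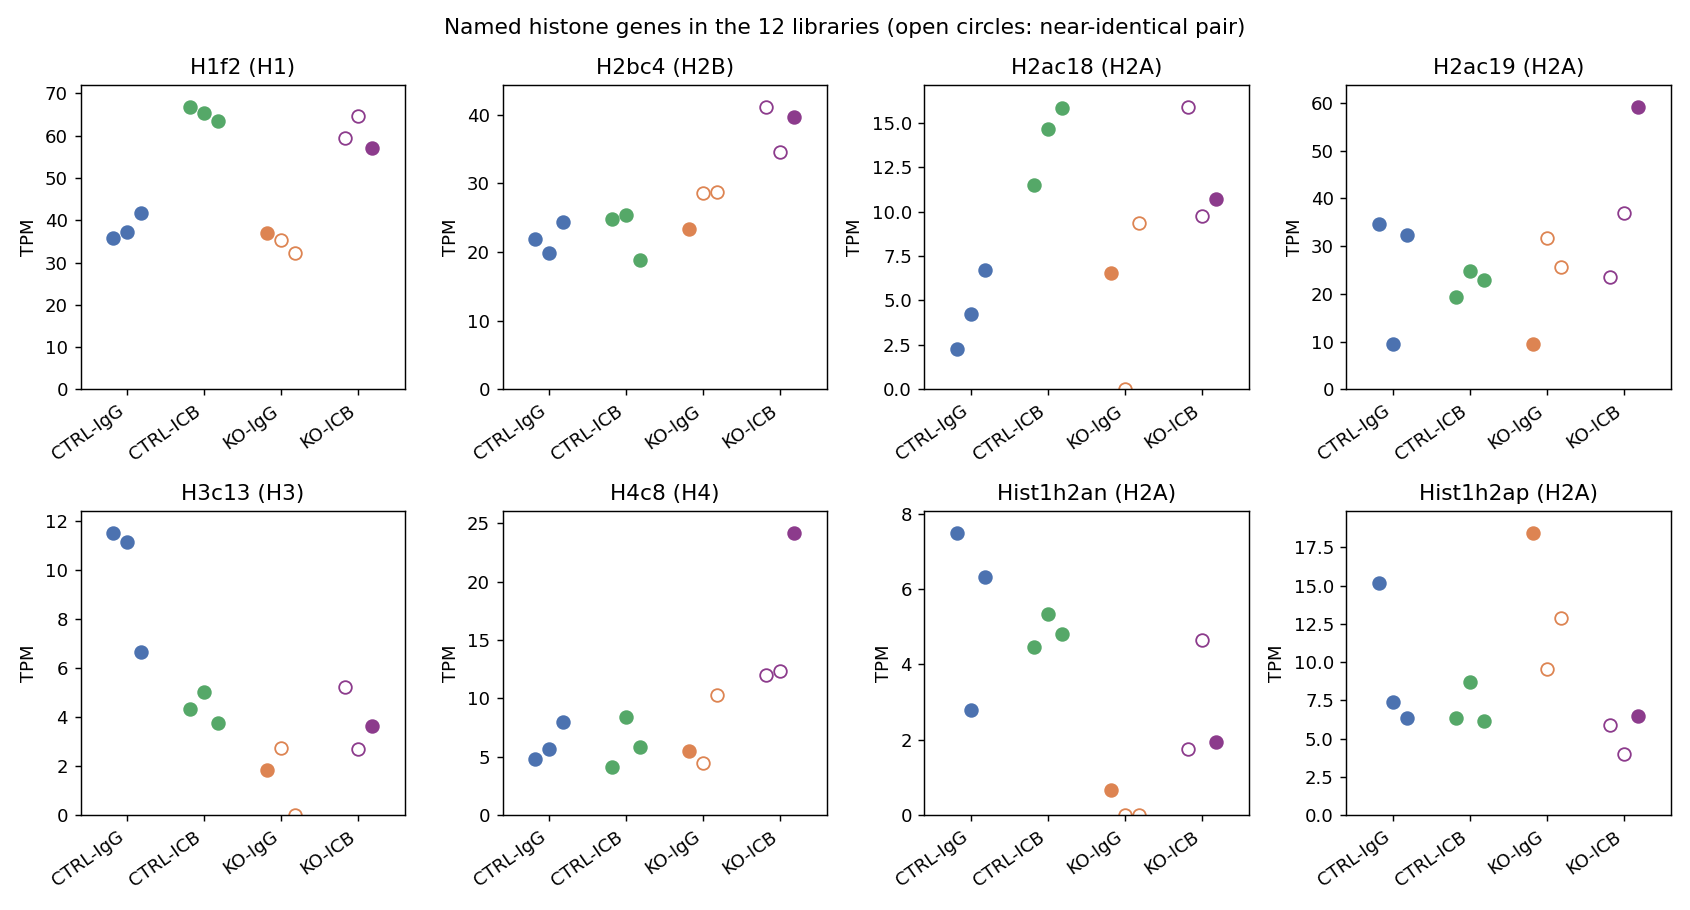
TPM of 8 histone genes in each of the 12 libraries by group (1 point each, open circles for the near-identical pairs, axes from 0). H1f2 and H2ac18 are higher in all ICB libraries, H2bc4 and H4c8 are highest in KO-ICB, and H3c13 and Hist1h2an are lowest in KO-IgG, where Hist1h2an is at 0 in 2 libraries.

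Most of the other histone genes had a fold change of the other sign from H1f2 in CTRL tumours. Under ICB, 33 of the 42 had a negative log2 fold change there and 9, H1f2 and H2ac18 among them, a positive one, where 47.3% of all genes were positive. The median was -0.25 against -0.01 over all genes, and 7 of 8 H2B, 6 of 8 H3 and 6 of 7 H4 genes were negative. Without CTRL-IgG 1 the median was -0.16, and without CTRL-ICB 1 it was -0.12. The lowest value was that of H3c10, an H3 gene, at 7.55, 6.04 and 3.01 TPM in CTRL-IgG and 0.808, 1.30 and 2.37 TPM in CTRL-ICB, groups that did not overlap (log2 fold change -1.37 ± 0.40). H3c10 shares 94.2% of its 31-base stretches with other genes and 85.3% with H3c11, so the split between these copies is an estimate. H3c11 was at 10.7, 6.25 and 3.16 TPM in CTRL-IgG and 4.85, 7.80 and 1.92 TPM in CTRL-ICB, which overlapped. In KO tumours 28 of 42 were positive, including all 7 H4 genes, against 47.5% of all genes. Their median over the 42 was 0.32 against -0.02 over all genes, and no histone gene was called. The median was 0.20 without the average of KO-IgG 2 and 3, 0.53 without KO-IgG 1 and 0.76 with 0.1 in place of 1 added to the TPM. The highest was Hist1h2an (1.44 ± 0.44), listed at 0 in 2 of the 3 KO-IgG libraries, and the lowest Hist1h2ap (-1.21 ± 0.42), both H2A genes. Both comparisons of treatment use their own control tumours.

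Genes of proliferating cells had fold changes of the other sign from H1f2. The genes of a list for DNA replication in S phase, such as Pcna, the sliding clamp of the polymerases, and Mcm6, of the replicative helicase, had negative log2 fold changes under ICB in 32 of 35 cases in CTRL tumours (median -0.26) and 33 of 35 in KO tumours (median -0.40). A mitosis list, with Cdk1 and Top2a, was negative for 21 of 22 genes in CTRL (median -0.21) and 22 of 22 in KO tumours (median -0.64). None of these genes was called. Fold changes under ICB were positive for 47.3% of all genes in CTRL and 47.5% in KO tumours. Without CTRL-ICB 2 the mitosis median in CTRL tumours was 0.00, and without KO-IgG 1 the KO medians were -0.09 for the S phase and -0.22 for the mitosis list. Without the average of KO-IgG 2 and 3 they were -0.65 and -1.03. A list of genes linked to leaving the cell cycle, with Cdkn2c and Btg1, was positive for 13 of 13 genes in CTRL tumours (median 0.30) and 6 of 13 in KO tumours (median -0.01), also with no call. Of 11 lists of cell type markers, none had a summed level that separated every ICB from every IgG library in the same direction in both genotypes. In CTRL tumours erythroid markers were higher under ICB (73.7 to 126 TPM in IgG, 129 to 273 TPM in ICB) and skeletal muscle markers lower (36.8 to 50.8 TPM and 24.1 to 30.2 TPM), without overlap, and 9 lists overlapped. In KO tumours muscle markers were higher under ICB (27.8 to 53.2 TPM and 100.2 to 103.6 TPM), as were those of epithelium (1478 to 4686 TPM and 4755 to 5168 TPM), fibroblasts (315 to 426 TPM and 736 to 772 TPM), neutrophils (32.1 to 95.6 TPM and 105.2 to 115 TPM) and keratinocytes (3.59 to 312 TPM and 360 to 367 TPM). Those of endothelium (58.2 to 145 TPM and 47.8 to 56.2 TPM) and B cells (1.98 to 10.5 TPM and 0.993 to 1.24 TPM) were lower, and 4 lists overlapped. The part of these genes in the H1f2 result was not tested.

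In tumours under isotype antibodies no histone gene was called between the genotypes. Of the 42 genes 34 had a negative log2 fold change in KO-IgG against CTRL-IgG, where 46.3% of all genes were positive. The median over the 42 was -0.45 against -0.03 over all genes. Negative values were found in 3 of 3 H1, 12 of 16 H2A, 7 of 8 H2B, 8 of 8 H3 and 4 of 7 H4 genes. H3c13, an H3 gene, was at 11.5, 11.2 and 6.64 TPM in CTRL-IgG and at 1.84, 2.74 and 0 TPM in KO-IgG, groups that did not overlap (log2 fold change -2.02 ± 0.31). It had the second-smallest p of all genes in this comparison, which may be how histone genes came to be chosen. Hist1h2an, an H2A gene, was at 7.48, 2.78 and 6.32 TPM in CTRL-IgG and at 0.672, 0 and 0 TPM in KO-IgG, again without overlap (-2.26 ± 0.41). Hist1h4n, an H4 gene, was at 14.5, 19.9 and 8.60 TPM against 5.14, 3.12 and 0 TPM (-1.88 ± 0.57), and H2bc12, an H2B gene, at 2.10, 6.07 and 6.62 TPM against 1.46, 0 and 0 TPM (-1.81 ± 0.57). Hist1h4n shares 85.25% of its 31-base stretches with Hist1h4m, which was at 1.86 TPM in KO-IgG 3, where Hist1h4n was at 0. The split between these copies is an estimate. The highest fold change belonged to Hist1h2ap, at 15.2, 7.38 and 6.32 TPM against 18.4, 9.57 and 12.9 TPM, which overlapped (0.63 ± 0.38). That value was 0.30 without KO-IgG 1 and 0.98 without CTRL-IgG 1. Without the average of KO-IgG 2 and 3 the value of Hist1h4n was -1.25 and that of H2bc12 was -1.16. With 0.1 in place of 1 added to the TPM, Hist1h2an was at -4.23 and H2bc12 at -3.51. H1f2 and H2bc4, the most abundant genes, differed little (-0.11 ± 0.17 and 0.22 ± 0.22).

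**Figure D5:**
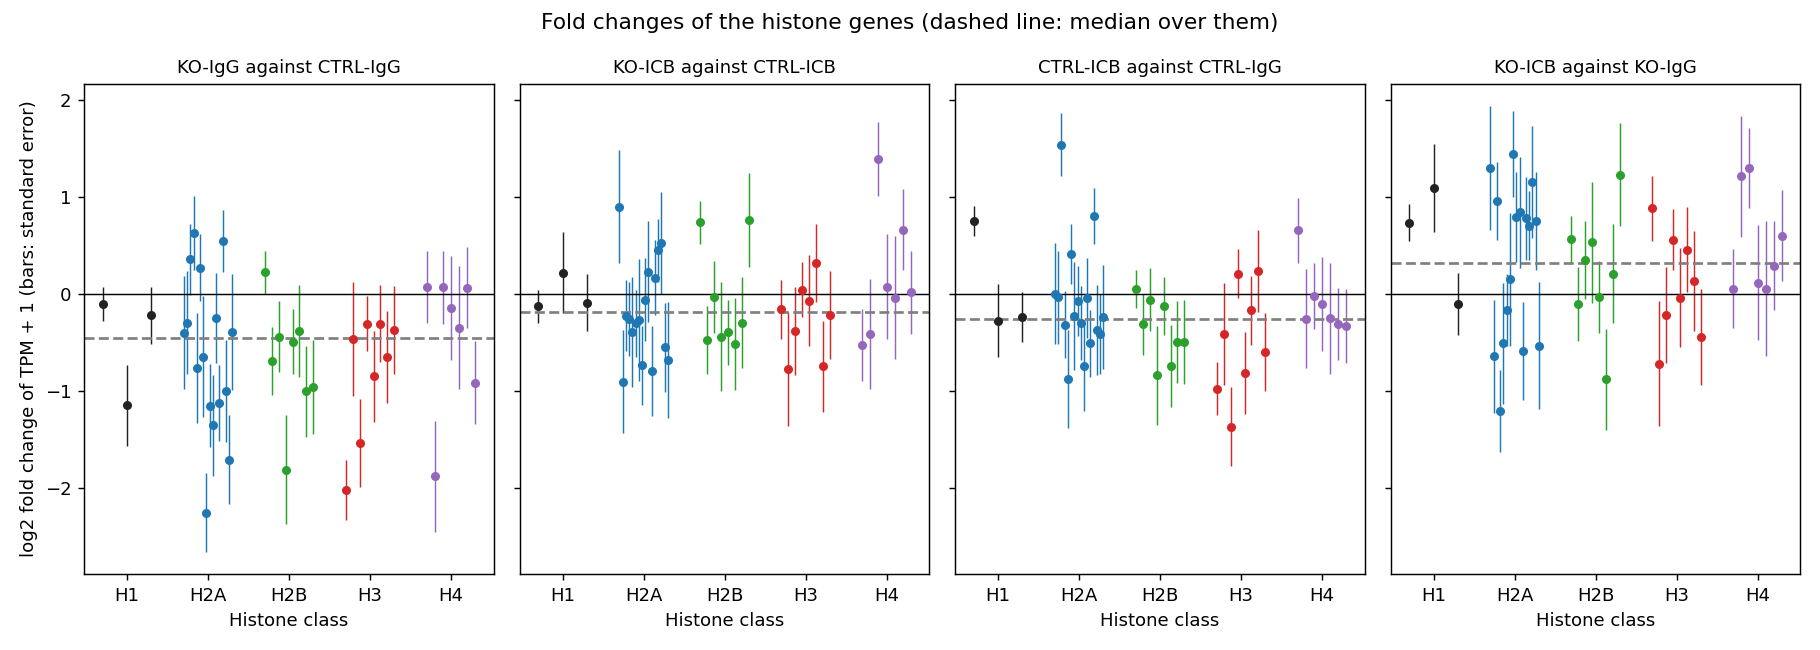
Log2 fold change of TPM + 1 for each of the 42 kept histone genes by class in 4 comparisons, with standard errors as bars and the median over the genes as a dashed line. The medians are -0.45, -0.19, -0.25 and 0.32 from left to right, and the first and last comparison share the KO-IgG samples.

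The 2 KO-IgG samples did not contribute alike. In the average of KO-IgG 2 and 3, 29 of 42 histone genes lay below the whole range of the CTRL-IgG samples and 3 above it, against 34.8% and 17.8% of all genes. In KO-IgG 1, 19 lay below and 7 above, against 18.9% and 32.2% of all genes. The number of genes listed at 0 was also high in KO-IgG 2 and 3, at 25 and 27 of 64, against 5 to 13 in the other libraries. Among genes with a mean of 1 to 10 TPM, 10 of 32 histone genes (31.2%) were at 0 in each of these 2 libraries, against 4.60% and 4.10% of all such genes. In the other libraries the share at 0 was 0% to 12.5% of the histone genes and 2.37% to 4.89% of all such genes. Without KO-IgG 1 the median over the 42 genes was -0.91, with 0.1 in place of 1 added to the TPM it was -0.76, and without the averaged pair it stayed negative. The S phase list had a positive fold change in 32 of 35 genes in this comparison (median 0.22), against 46.3% of all genes, but without KO-IgG 1 its median was -0.09. Summed neutrophil markers, with S100a8 and S100a9, were at 445 to 622 TPM in CTRL-IgG and 32.1 to 95.6 TPM in KO-IgG, fibroblast markers at 614 to 2623 TPM and 315 to 426 TPM, T cell markers at 33.9 to 46.1 TPM and 78.9 to 186 TPM, and NK cell markers at 15.4 to 21.4 TPM and 46.8 to 92.9 TPM. All 6 neutrophil and all 7 fibroblast markers tested had negative and all 8 T cell and all 5 NK cell markers positive fold changes, none called in this comparison. The 6 epithelial markers tested were negative too, with overlapping sums. The part of these markers in the histone levels was not tested.

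Under checkpoint antibodies the median over the histone genes lay closer to 0. In KO-ICB against CTRL-ICB 14 of 42 were positive and 28 negative, where 46.5% of all genes were positive. Their median was -0.19 against -0.03 over all genes, and no histone gene was called. The median was -0.08 without CTRL-ICB 2, and also without CTRL-ICB 3, the library with the most keratinocyte transcripts. H4c8, an H4 gene, had the highest value: it was at 4.15, 8.43 and 5.85 TPM in CTRL-ICB and at 11.995, 12.3 and 24.1 TPM in KO-ICB (log2 fold change 1.39 ± 0.38). H2bc4 was at 24.8, 25.4 and 18.9 TPM against 41.0, 34.6 and 39.7 TPM (0.74 ± 0.22). For both genes KO-ICB also stood above the isotype groups, where H4c8 was at 4.45 to 10.2 TPM and H2bc4 at 19.8 to 28.7 TPM. Without KO-ICB 3 the fold change of H4c8 was 0.92. H4c8 shares 44.8% of its 31-base stretches with H4c11 alone, so its level is in part an estimated split. H4c9, another H4 gene, stood lower in KO-ICB than in CTRL-ICB. The sum of H4c8 and H4c9 was 21.1, 20.7 and 20.1 TPM in CTRL-ICB and 20.1, 22.2 and 34.5 TPM in KO-ICB. Over single libraries that sum overlapped between the genotypes, as did the sum of all H4 genes. H2ac13, an H2A gene, had the lowest value, at 13.9, 8.25 and 14.1 TPM against 1.04, 7.33 and 8.001 TPM, with the near-identical libraries KO-ICB 1 and 2 far apart (-0.90 ± 0.54), and without the average of those 2 the value was -0.51. H3c13 was at 4.34, 5.03 and 3.75 TPM in CTRL-ICB and 5.23, 2.70 and 3.62 TPM in KO-ICB, which overlapped. Skeletal muscle markers, with Acta1 and Tnni2, also set KO-ICB apart, at 100.2 to 103.6 TPM against 24.1 to 53.2 TPM in the other libraries. Epithelial markers stood only narrowly higher in KO-ICB, at 4755 to 5168 TPM against 1478 to 4713 TPM in the other libraries. The part of both lists in the H4c8 and H2bc4 levels was not tested. Summed T cell markers were at 74.7 to 80.7 TPM in KO-ICB and 36.5 to 62.0 TPM in CTRL-ICB.

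Other abundant members varied without such a split. Over the 12 libraries the H2B genes H2bc18 and H2bc8 ranged from 1.15 to 14.3 TPM and from 1.41 to 6.23 TPM, the H3 gene H3c11 from 0.931 to 10.7 TPM and the H4 gene H4c12 from 2.09 to 11.3 TPM. Over single libraries their groups overlapped in all 4 comparisons of 2 groups. With the near-identical pairs averaged, H2bc18 stood lower in KO-ICB than in CTRL-ICB and H2bc8 higher in KO-ICB than in KO-IgG, without overlap. H3c14, an H3 gene, was at 1.05 to 1.58 TPM in KO-IgG and 1.91 to 3.00 TPM in KO-ICB, without overlap. H4c9 was at 12.2 to 17.0 TPM in CTRL-ICB and 8.14 to 10.4 TPM in KO-ICB, also without overlap. The share of all genes without overlap in these comparisons was not counted, so nothing is read from it.

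Averaged over the treatments, 34 of 42 histone genes had a negative log2 fold change in KO against CTRL, none called, where 46.2% of all genes were positive. Their median was -0.45 against -0.03 over all genes. No histone gene separated every KO sample from every CTRL sample, as 284 genes (2.05%) did upward and 211 (1.52%) downward. Hist1h2an had the lowest value (-1.50 ± 0.29) and H3c13 stood at -1.09 ± 0.22, and without KO-IgG 1 both were called (limma adjusted p = 0.0372 and 0.0498), as were 273 of all 13886 genes. For the interaction 30 of 42 genes were positive, against 49.4% of all genes, with a median of 0.39 against -0.01 over all genes. These comparisons share the KO-IgG samples with those above.

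Genes that make or cut histone mRNA showed no call in any comparison. The list held 19 tested genes. Slbp, the stem-loop binder, was at 59.2 to 73.5 TPM in CTRL-IgG, 44.3 to 57.5 TPM in CTRL-ICB, 71.6 to 83.3 TPM in KO-IgG and 59.6 to 73.9 TPM in KO-ICB. Its treatments did not overlap in CTRL tumours (-0.36 ± 0.18, not called), and overlapped between treatments in KO tumours. Npat, the coactivator of histone genes in S phase, was at 3.98 to 11.1 TPM over all libraries, and Mki67, a marker of cycling cells, at 12.9 to 34.5 TPM, with overlapping groups. Fold changes were positive for 12 of the 19 genes in KO-IgG against CTRL-IgG and 6 of 19 under ICB in each genotype. The 10 tested genes of replication-independent histones split 7 to 3 in KO-IgG against CTRL-IgG and 4 to 6 and 5 to 5 under ICB in CTRL and KO tumours. Of 19 histone chaperones, with Npm1 and Nap1l1, 11 were positive in KO-IgG against CTRL-IgG and 7 under ICB in each genotype, and of 19 genes of the poly(A) tail machinery, with Pabpn1, 11 and then 9 and 8. Positive fold changes made up 46.3% of all genes in KO-IgG against CTRL-IgG, and 47.3% and 47.5% under ICB in CTRL and KO tumours.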

How the data were processed

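RNA of 12 tumours was sequenced from poly(A) libraries, and the deposited table holds TPM values made by the authors, 1 column per library, each summing to the same total. Per the submitters' processing notes, kallisto and GRCm38 were used; of its version, transcript set and use of strand nothing is stated in the sources used here. Groups were read from the library titles. The members, gene lists and comparisons were chosen with earlier results of these data known. Near-identical libraries (robust SD of the log2 ratio under 0.1 over genes above 300 TPM) were averaged, leaving 10 samples. Genes reaching 1 TPM in 3 or more libraries were fitted on log2(TPM + 1), which understates the change of low genes, in limma 3.58.1 (R 4.3.3) with 4 group means, an intensity trend and robust shrinkage; the model was tested on simulated data. P-values measure the spread between these samples. Transcripts and coordinates came from GENCODE M21, promoters from RefSeq. Python 3.11.15 with pandas 2.3.3 was used. Named were, per histone class, up to 4 genes with the highest mean, genes with the highest or lowest fold change in a comparison of 2 groups, genes called under an alternative and H3c13, and from other lists the most abundant genes; Hist1h4n and H2bc12 also fall among these. Alternatives covered scaling, filters, the pseudocount, shrinkage, all 12 libraries, a replicate block, the groups fitted, and leaving out libraries. No column was without a sample.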

Additional observations from a re-analysis of the deposited data

Results flagged for a closer look

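H3c13 was the one named histone gene whose level under checkpoint antibodies moved in opposite directions in the genotypes with every sample. It was lower in each CTRL-ICB sample than in each CTRL-IgG sample and higher in each KO-ICB than in each KO-IgG sample, after averaging the near-identical pairs. The log2 difference between the 2 effects came to 1.86, with an SE of 0.43 (limma, adjusted p = 0.999 among 13886 genes), so the difference did not pass correction. Over single libraries KO-IgG 2, at 2.74 TPM, stood just above KO-ICB 2, at 2.70 TPM. Only the named genes were searched, and the share of all genes with such opposite moves was not counted. H3c13 had also been singled out when the set was chosen, so its pattern is a description. Groups of 2 or 3 samples are too small for a search for single outlying samples.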

How the results depend on the processing

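The 27 named fold changes were refitted under up to 20 alternatives each (531 values): none changed sign, and 6 came to pass the threshold. Outside the alternatives named here, no member was called in any comparison. With 12 libraries as samples the members called numbered 1 in KO-IgG against CTRL-IgG, 2 in KO against CTRL averaged and 1 in ICB against IgG averaged, beside 16, 449 and 2 of all 13886 genes (0, 15 and 0 with the near-identical pairs averaged). Leaving out 1 sample at a time gave 0 to 2 members called in KO against CTRL averaged, the 2 (H3c13 and Hist1h2an) without KO-IgG 1, where 273 of all genes were called, and the cause was not tested. With a replicate block over the 12 libraries, 1 member (Hist1h2an) was called in KO against CTRL averaged, beside 259 of all genes. The replicate numbers do not pair the samples: deviations from the group means correlated at -0.364 to 0.270 for equal numbers and -0.457 to 0.420 for unequal ones. Scaling each library by its median ratio moved 4 class sums by over 1 SD: H1 to 71.2 TPM in CTRL-ICB and, in KO-ICB, H1 to 66.6, H2B to 58.99 and H3 to 15.2 TPM. The share of members with a stem-loop was 87.2% also with a narrower or wider window or 1 mismatch. The TPM values carry no depth, so how many reads stand behind a level of a few TPM is unknown, and a value listed at 0 sets no limit.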
